A study of Mus musculus with 11 samples.

Results

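Transcripts of the SLAM family and of CD45 were followed across 4 sorted populations of mouse bone marrow. The genes were Slamf1, Cd48, Ly9, Cd84, Slamf6, Slamf7 and Ptprc, and they were taken by their symbols, with every probe annotated to them. All 7 were on the array and passed the filter on dim signals, out of 19057 genes named on it and 11376 that passed. They had 19 of its 45281 probes, and 17 of those were detected on at least 2 of the 11 arrays. Slamf6 and Slamf7 were highest in the B220-positive fraction by a wide margin, Ly9 fell in steps across the fractions, Slamf1 was highest in stem cells, and the 3 probes of Cd84 read at odds with each other.

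SLAM receptors are immunoglobulin-superfamily proteins of blood cells, and most of them bind the same receptor on a neighbouring cell. Their tails carry tyrosine motifs that recruit the adaptors SAP and EAT-2 or inhibitory phosphatases, so that one receptor can activate or restrain a cell depending on which adaptor it holds. CD45, the product of Ptprc, is the abundant transmembrane tyrosine phosphatase of nucleated blood cells and sets the activity of Src-family kinases. In mouse bone marrow CD150 (Slamf1) and CD48 are used to separate haemopoietic stem cells from progenitors, and B220 is an epitope of the long CD45 isoform that B cells carry.

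Cells of the C57BL/6 strain were sorted from the endosteal region of bone marrow, and their RNA was hybridised to Illumina MouseWG-6 v2 bead arrays. Haemopoietic stem cells (HSC) were sorted as LSK CD150+ CD48- and measured on 2 arrays. The other 9 arrays hold cells positive for the reagent FITC-AGE, in 3 fractions with 3 arrays each: CD31+ B220+, CD31+ B220- and CD31- B220-. As cell type the labels give scavenger endothelial cells for each fraction. Titles were followed for CD31- B220-, whose source names start with HSC. No treatment, age or genetic change is given. Some RNA was pooled, and nothing says that numbered replicates came from separate animals, so the p-values measure the spread between these arrays, which may be technical.

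The gates bear on several of these genes. Stem cells were sorted as CD150-positive and CD48-negative, so the sort set part of every difference of Slamf1 and Cd48 from HSC. B220 is made from Ptprc by exon choice, and the B220 gates therefore bear on that gene, while the array reads its RNA by gene symbol and not by isoform.

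The labelled cell type was checked against marker genes. Cdh5, the adhesion molecule of endothelial junctions, was detected on 3 of 3 CD31+ B220- arrays at a mean log2 signal of 5.72, on 1 of 3 CD31+ B220+ arrays and on no CD31- B220- array. Stab2, a scavenger receptor of sinusoidal endothelium, was detected on all CD31+ B220- and HSC arrays, at means of 5.99 and 5.17, and on none of CD31+ B220+ or CD31- B220-, and Stab1, which macrophages also carry, was detected on all arrays. The HSC readings of Stab2 lay at or close to the lowest detected signal of their arrays. Of other endothelial genes, Kdr was detected on 1 of 3 arrays of each fraction. Tek was detected on 1 of 3 CD31+ B220- arrays and on both HSC arrays. Esam was detected on 3 of 3 CD31+ B220- arrays, at a mean of 7.55, and on both HSC arrays, at 12.36. All 8 genes of the endothelial list were detected in CD31+ B220-, 5 of them on every array. In HSC 6 of the 8 were detected, and Cdh5 and Kdr were not. Summed signals of 8 endothelial genes were 879 to 1006 in CD31+ B220+, 716 to 852 in CD31+ B220-, 451 to 487 in CD31- B220- and 8366 to 8780 in HSC. That list includes Pecam1, which encodes CD31, so the CD31 gate bears on its sum. Pecam1 had means of 9.48 in CD31+ B220+, 7.85 in CD31+ B220-, 5.12 in CD31- B220- and 7.18 in HSC. Tek, Emcn, Eng, Tie1 and Esam of the same list were undetected in CD31+ B220+. The 8 genes listed for scavenger or sinusoidal endothelium had another order, summing to 1384 to 1765 in CD31+ B220+, 2811 to 3454 in CD31+ B220-, 2285 to 2659 in CD31- B220- and 830 to 960 in HSC. Stab1 is in this list, at means of 8.80, 10.38, 10.33 and 9.38 in the same order of groups. Lyve1 and Cd36 of the list were detected in no group, and Flt4 only in CD31- B220-. The 8 B lineage genes with a named probe summed to 45520 to 46308 in CD31+ B220+, where all 8 were detected on every array. Their sums were 6379 to 9848 in CD31+ B220-, 465 to 714 in CD31- B220- and 846 to 903 in HSC. Monocyte and macrophage genes summed to 22196 to 25898 in CD31+ B220- and 21516 to 24024 in CD31- B220-, against 336 to 708 in CD31+ B220+ and 1570 to 2010 in HSC. Neutrophil genes summed to 51706 to 57459 in CD31+ B220-, 18902 to 49590 in CD31- B220-, 1108 to 5525 in CD31+ B220+ and 6070 to 6306 in HSC. Erythroid genes were highest in CD31- B220-, at 37259 to 44943. They summed to 5927 to 12898 in CD31+ B220+, 6041 to 13895 in CD31+ B220- and 14969 to 18640 in HSC. Stromal genes were also highest in CD31- B220-, at 3051 to 5286, and at most 539 in the other groups. The sums of T and NK genes were 854 to 2089 in CD31+ B220-, where Cd3e of the T cell receptor complex was detected on 3 of 3 arrays. They were 734 to 913 in HSC, which overlaps that range, 215 to 289 in CD31- B220- and 198 to 261 in CD31+ B220+, where Cd3d, Cd3e and Cd3g were undetected. Cd4, Cd8a and the NK genes Ncr1 and Klrb1c were undetected in CD31+ B220-. In sorted bulk samples such as these, fewer cells of a type and less RNA per cell cannot be told apart.

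**Figure D1:**
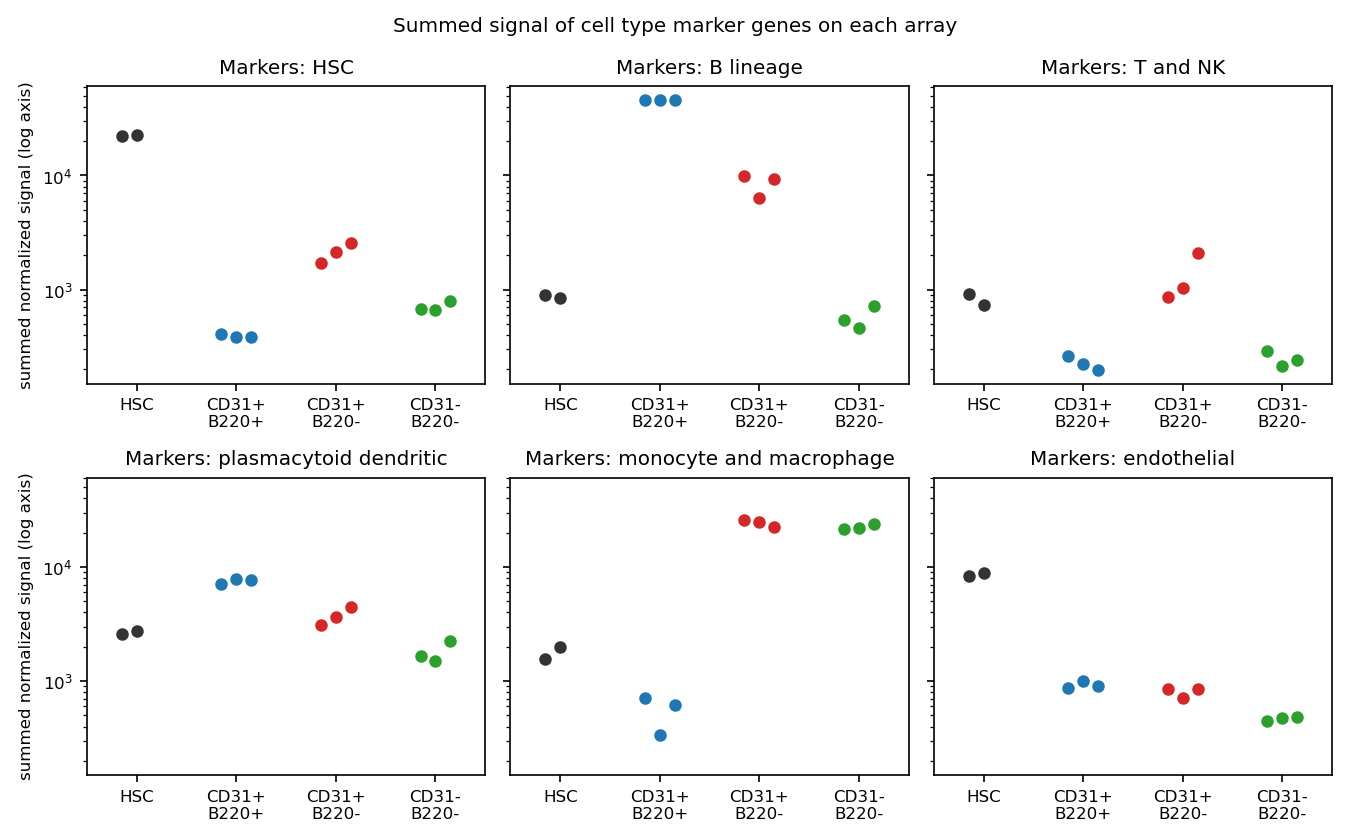
Summed normalized signal of 6 marker lists on each array (vertical axis logarithmic; points are single arrays, replicates 1 to 3 from left to right). The B lineage sum was 45520 to 46308 in CD31+ B220+, and the monocyte and macrophage sum was 21516 to 25898 over both B220-negative fractions.

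Before normalization the upper quartile of raw signals was 376.8 to 450.5 on HSC arrays and 145.9 to 211.6 on the others, and each array detected 15063 to 17755 probes. Values below are background-corrected, quantile-normalized log2 signals. A probe counted as detected at a detection p under 0.05, and differences were called at an adjusted p under 0.05 in limma's moderated test over the 11376 genes. Levels of different probes are not comparable, so each gene is compared with itself across groups. All 3 comparisons with HSC rest on 1 pair of HSC arrays and are not independent.

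The promoter windows of 4 members are shown: those of Slamf6 and Slamf7, which separated the B220-positive fraction from the other groups, and those of Slamf1 and Cd48, whose products were the stem cell gate. No window of Ly9 was used here. Each is the 250 bases before the gene's start on its own strand, 5′ to 3′, from RefSeq on GRCm38.p6. Slamf6 is at chr1:171917212-171917461 (plus strand), Slamf7 at chr1:171649000-171649249 (minus strand), Slamf1 at chr1:171766882-171767131 (plus strand) and Cd48 at chr1:171681742-171681991 (plus strand). Capitals mark matches on either strand to 5 motifs of blood cell transcription factors.
Slamf6: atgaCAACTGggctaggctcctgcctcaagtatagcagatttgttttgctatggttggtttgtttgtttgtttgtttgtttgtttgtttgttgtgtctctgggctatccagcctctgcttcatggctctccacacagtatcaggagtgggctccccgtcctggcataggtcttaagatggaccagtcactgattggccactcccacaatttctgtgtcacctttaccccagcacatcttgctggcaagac
Slamf7: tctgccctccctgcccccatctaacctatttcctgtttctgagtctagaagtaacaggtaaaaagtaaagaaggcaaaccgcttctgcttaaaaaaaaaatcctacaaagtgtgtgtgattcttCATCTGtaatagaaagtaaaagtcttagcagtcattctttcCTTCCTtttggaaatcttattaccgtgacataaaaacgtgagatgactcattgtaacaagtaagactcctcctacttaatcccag
Slamf1: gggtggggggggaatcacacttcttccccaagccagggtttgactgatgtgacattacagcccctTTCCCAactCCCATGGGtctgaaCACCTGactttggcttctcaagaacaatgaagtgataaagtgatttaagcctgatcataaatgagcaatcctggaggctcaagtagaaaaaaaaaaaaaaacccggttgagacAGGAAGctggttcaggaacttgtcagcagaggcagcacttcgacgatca
Cd48: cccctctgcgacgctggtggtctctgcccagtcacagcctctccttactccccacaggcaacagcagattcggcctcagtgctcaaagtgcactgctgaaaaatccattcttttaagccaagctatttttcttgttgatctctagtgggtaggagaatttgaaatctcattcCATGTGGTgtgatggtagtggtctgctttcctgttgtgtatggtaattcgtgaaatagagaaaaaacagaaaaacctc

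The motifs searched were the ETS core AGGAAG, found in 29.5% of all 32851 windows of this length, RUNX TGTGGT in 14%, EBF1 CCCNNGGG in 11.8%, the E-box CANNTG in 66.2% and Ikaros TGGGAA in 21.6%. EBF1 and E-box motifs are palindromes. Slamf1 had 1 match each to ETS, EBF1, E-box and Ikaros, Slamf7 had 1 ETS and 1 E-box match, and Slamf6 had only 1 E-box, 246 bases before the start. In Cd48 the capitals are a RUNX match that overlaps an E-box. Of the members not shown, Cd84 had 1 RUNX and 1 E-box match, and Ptprc had 3 ETS matches in the first of its 2 windows. These are matches of letters, with no binding measured.

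Counted over the family, CD31+ B220+ differed from HSC in 6 of 7 genes (5 higher, 1 lower), where 45.3% of all tested genes were called, 19.3% higher and 26% lower. CD31+ B220- differed from HSC in 5 of 7 genes (4 higher, 1 lower), against 42.5% of all genes (18.2% higher, 24.3% lower). CD31- B220- differed from HSC in 4 of 7 (3 higher, 1 lower), against 50.2% (21.4% higher, 28.8% lower). In each comparison with HSC the calls include Slamf1, the lower gene, and Cd48, among the higher ones. Both belong to the stem cell gate, so the sort set part of these counts. Between fractions, CD31+ B220+ differed from CD31+ B220- in 6 of 7 genes (5 higher, 1 lower), against 36.4% of all genes (17.4% higher, 19% lower). It differed from CD31- B220- in 6 of 7 (5 higher, 1 lower), against 45.6% (22.7% higher, 22.9% lower). CD31+ B220- was higher than CD31- B220- in 4 of 7 genes and lower in none, against 29.4% of all genes (16.8% higher, 12.6% lower). Where single probes are tested below, 41.7%, 37.4% and 45.2% of all 18422 probes were called against HSC, in the same order of fractions, and 32%, 40.9% and 24.3% between fractions. With backgrounds this high and 7 genes, the counts say little alone. Median log2 differences of the 7 genes were 1.69, 0.93 and 0.28 against HSC, in the order of fractions above, beside medians of -0.03, -0.05 and -0.05 over all tested genes. Between fractions, in the same order, they were 0.92, 1.47 and 0.68, beside 0.01, 0.02 and 0.06. Some of these rest on genes undetected in 1 of the groups. With such genes at the smallest difference that the lowest detected signals allow, the medians against HSC were 1.30, 0.58 and 0.28, and those between fractions 0.92, 1.47 and 0.44. Without Slamf1 and Cd48, which the stem cell gate used, the medians against HSC set that way were 3.26, 0.58 and 0.28.

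**Figure D2:**
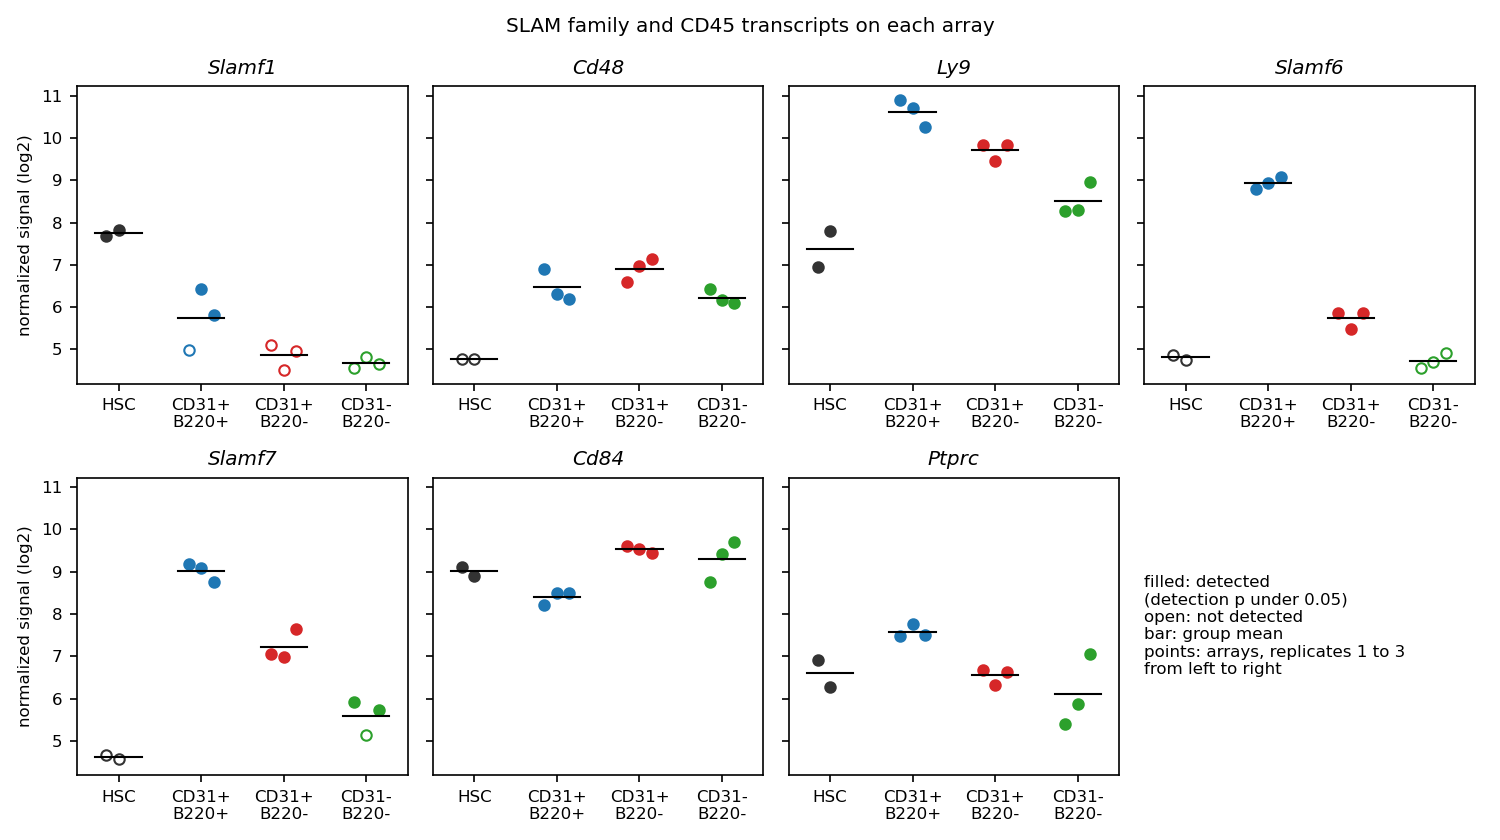
Normalized log2 signal of the 7 genes on each of the 11 arrays, 1 probe per gene; filled points were detected, open points were not, and bars are group means. Slamf6 and Slamf7 stood at 8.75 or above on all 3 CD31+ B220+ arrays and were undetected in HSC, while Slamf1 was highest in HSC.

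Slamf1 encodes CD150, the first receptor of the family to be described and its own ligand. On HSC arrays it read 7.69 and 7.83. In CD31+ B220+ it read 4.98, 6.43 and 5.80, with the first of these not detected, and it was detected on no array of CD31+ B220- (5.10, 4.51 and 4.97) or CD31- B220- (4.56, 4.82 and 4.66). HSC stood above every other array without overlap, and the 3 CD31+ B220+ arrays spread widely, the lowest of them inside the CD31+ B220- range. In CD31+ B220+ Slamf1 differed from HSC by -2.02 (SE 0.33), 4.06-fold lower (limma adjusted p = 0.000225). It was at least 5.62-fold lower in CD31+ B220- (adjusted p = 1.3e-05) and at least 5.38-fold lower in CD31- B220- (adjusted p = 4.6e-06). "At least" marks a bound, taken from the lowest detected signal on each array of a group that did not detect the probe. CD31+ B220+ was also at least 1.33-fold higher than CD31- B220- (adjusted p = 0.00954) and at least 1.39-fold higher than CD31+ B220- (adjusted p = 0.0332). The second call was lost without CD31+ B220+ replicate 2, the highest array (fitted difference 0.55, adjusted p = 0.157), or replicate 3 (adjusted p = 0.0814), and without CD31+ B220- replicate 2 (adjusted p = 0.126) or replicate 3 (adjusted p = 0.0568). A further probe, ILMN_1249863, gave the same order against HSC, at 6.61 and 6.02 in HSC and 5.28, 4.84 and 5.47 in CD31+ B220+. Its difference between the CD31+ fractions was 0.58 (adjusted p = 0.0638 in the fit of single probes). The third probe, ILMN_2568187, was detected on 1 array each of HSC and CD31+ B220+ and did not repeat that order, with CD31+ B220+ minus HSC at 0.05 (adjusted p = 0.884).

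Cd48 encodes a lipid-anchored member that serves as ligand for CD244 and CD2. Its only probe read 4.77 on both HSC arrays, not detected on either. It was detected on 9 of 9 arrays of the fractions, at 6.90, 6.32 and 6.18 in CD31+ B220+, 6.60, 6.96 and 7.15 in CD31+ B220- and 6.43, 6.16 and 6.09 in CD31- B220-. All 9 lay above both HSC arrays, and the fractions lay close together. Against HSC, Cd48 was at least 2.46-fold higher in CD31+ B220+ (adjusted p = 7.64e-05), at least 3.34-fold in CD31+ B220- (adjusted p = 1.34e-05) and at least 2.08-fold in CD31- B220- (adjusted p = 0.000246). Among fractions only CD31+ B220- against CD31- B220- passed, with 0.68 (1.60-fold, adjusted p = 0.0316). That call was lost when CD31+ B220- replicate 3 was left out (0.57, adjusted p = 0.123), and likewise without CD31+ B220- replicate 2 or CD31- B220- replicate 2 or 3 (adjusted p = 0.08 to 0.0875). CD31+ B220+ minus CD31+ B220- was -0.44 (95% interval -0.91 to 0.03), and it passed without CD31+ B220+ replicate 1 (-0.66, adjusted p = 0.0314).

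Ly9 encodes CD229, a self-binding receptor of lymphocytes with a doubled set of outer domains. The probe was detected everywhere, at 6.94 and 7.79 in HSC, 10.91, 10.72 and 10.25 in CD31+ B220+, 9.83, 9.46 and 9.84 in CD31+ B220- and 8.29, 8.30 and 8.96 in CD31- B220-. No pair of groups overlapped, and the order ran from CD31+ B220+ through CD31+ B220- and CD31- B220- to HSC. By this probe, the brightest of the gene, every step of that order passed the test. Ly9 was 9.56-fold higher in CD31+ B220+ than in HSC (difference 3.26, SE 0.30, adjusted p = 1.06e-06), 1.89-fold higher than in CD31+ B220- (adjusted p = 0.0161) and 4.32-fold higher than in CD31- B220- (adjusted p = 1.97e-05). CD31+ B220- exceeded CD31- B220- by 2.29-fold (adjusted p = 0.00405) and HSC by 5.07-fold (adjusted p = 3.53e-05). The last step, CD31- B220- over HSC at 1.14 (adjusted p = 0.006), was 0.73 without HSC replicate 1 (adjusted p = 0.121) and turned to -0.33 when arrays were scaled to equal medians (adjusted p = 0.393). The step between the CD31+ fractions was lost without CD31+ B220+ replicate 1 (0.77, adjusted p = 0.0682) or replicate 2 (0.87, adjusted p = 0.0539), and without CD31+ B220- replicate 2 (0.79, adjusted p = 0.0666). The probe ILMN_1213596 kept the order of the 4 groups, but its difference between the CD31+ fractions was 0.30 (adjusted p = 0.32). ILMN_1213156 was detected on 3 CD31+ B220+ arrays, 2 CD31+ B220- arrays, 1 CD31- B220- array and no HSC array. Its means kept the order too, with CD31+ B220+ over CD31+ B220- at 1.24 (adjusted p = 0.00356 among single probes). Its lower steps were not called. CD31+ B220- minus CD31- B220- was 0.32 (adjusted p = 0.47), and CD31- B220- minus HSC 0.26 (adjusted p = 0.528). CD31+ B220- minus HSC, at 0.58 (adjusted p = 0.165), was not called either.

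Slamf6 encodes Ly108, a self-binding receptor that takes part in B and T cell contacts. It had the clearest separation of the family. HSC arrays read 4.88 and 4.75 and CD31- B220- arrays 4.56, 4.70 and 4.91, none of them detected. CD31+ B220+ arrays read 8.80, 8.94 and 9.08, and CD31+ B220- arrays 5.87, 5.49 and 5.87, all 6 detected. The 3 detected levels of CD31+ B220- lay just above the undetected groups, far under CD31+ B220+. CD31+ B220+ exceeded CD31+ B220- by 3.19 (SE 0.18, 9.16-fold, adjusted p = 1.74e-08), CD31- B220- by at least 12.2-fold (adjusted p = 5.58e-10) and HSC by at least 13.7-fold (adjusted p = 2.37e-09). CD31+ B220- was at least 1.49-fold above HSC (adjusted p = 0.00232) and at least 1.33-fold above CD31- B220- (adjusted p = 0.000762). These 5 calls held under all alternatives run. Its other probes were near background: ILMN_2740678 was detected on 2 arrays and ILMN_1244491 on 1, so the pattern rests on a single probe.

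Slamf7 encodes CRACC, a self-binding receptor that works through EAT-2 and is plentiful on plasma cells and NK cells. HSC arrays read 4.67 and 4.58, not detected. CD31+ B220+ arrays read 9.18, 9.10 and 8.75, CD31+ B220- arrays 7.05, 6.98 and 7.64, and CD31- B220- arrays 5.92, 5.13 and 5.73, of which the middle one was not detected. The 4 groups did not overlap. CD31+ B220+ was higher than CD31+ B220- by 1.79 (SE 0.24, 3.45-fold, adjusted p = 6.02e-05) and than CD31- B220- by 3.41 (10.7-fold, adjusted p = 6.3e-08), and at least 14.3-fold above HSC (adjusted p = 2.25e-08). CD31+ B220- was 3.09-fold above CD31- B220- (adjusted p = 0.000173) and at least 4.16-fold above HSC (adjusted p = 5.42e-06). CD31- B220-, detected on 2 of 3 arrays, was at least 1.35-fold above HSC (adjusted p = 0.00863), a call lost without HSC replicate 1 (adjusted p = 0.0522) or replicate 2 (adjusted p = 0.0769). The probe ILMN_2638491 repeated the order, at 7.93, 8.07 and 8.12 in CD31+ B220+ and 6.50, 5.96 and 6.43 in CD31+ B220-. By that probe CD31- B220- minus HSC was 0.58 (adjusted p = 0.0733).

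The sum of B lineage genes had the same order as Slamf6 among the fractions, highest in CD31+ B220+ and lowest in CD31- B220-. Plasmacytoid dendritic cell genes, which also mark B220-positive cells, summed to 7081 to 7803 in CD31+ B220+, 3134 to 4441 in CD31+ B220-, 1510 to 2238 in CD31- B220- and 2577 to 2736 in HSC. Plasma cell genes summed to 4895 to 5242 in CD31+ B220+ and 4912 to 5860 in CD31+ B220-, with Jchain and Prdm1 undetected in CD31+ B220+. They summed to 2870 to 4102 in CD31- B220- and 3099 to 3475 in HSC, where Xbp1 was the only gene of the list detected. The part of these cell types in the levels of Ly9, Slamf6 and Slamf7 was not tested.

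Cd84 encodes a self-binding receptor found on B cells, myeloid cells and platelets. By its brightest probe it was detected on every array, at 9.12 and 8.91 in HSC, 8.22, 8.49 and 8.49 in CD31+ B220+, 9.61, 9.55 and 9.45 in CD31+ B220- and 8.77, 9.41 and 9.70 in CD31- B220-. The CD31+ B220+ arrays were the lowest, without overlap with any group, while CD31- B220- spread across the HSC level. CD31+ B220+ minus CD31+ B220- was -1.13 (SE 0.22, 2.19-fold lower, adjusted p = 0.0013), and CD31+ B220+ minus CD31- B220- was -0.89 (1.86-fold lower, adjusted p = 0.00468). Its difference from HSC was -0.61 (95% interval -1.15 to -0.08, adjusted p = 0.0603), and passed without CD31- B220- replicate 1 (adjusted p = 0.0215) or replicate 3 (adjusted p = 0.0353). Against HSC, CD31+ B220- was at 0.52 (adjusted p = 0.112; 0.0487 without CD31- B220- replicate 1) and CD31- B220- at 0.28 (adjusted p = 0.371). Monocyte and macrophage genes had a similar contrast between fractions, summing to 336 to 708 in CD31+ B220+ and 21516 to 25898 over the other fractions, and their part in the Cd84 difference was not tested.

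The other Cd84 probes did not repeat this. ILMN_2560379 read 6.30 and 6.53 in HSC against 7.13, 7.78 and 7.27 in CD31+ B220+, a difference of 0.98 in the opposite direction (adjusted p = 0.025 among single probes). ILMN_1245754 was higher in CD31+ B220+ than in CD31- B220- by 0.92 (adjusted p = 0.0405). Averaged over its detected probes, Cd84 differed between the CD31+ fractions by -0.10 (adjusted p = 0.782) and between CD31+ B220+ and CD31- B220- by 0.12 (adjusted p = 0.715). The lower Cd84 level in CD31+ B220+ therefore holds for 1 of 3 probes.

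**Figure D3:**
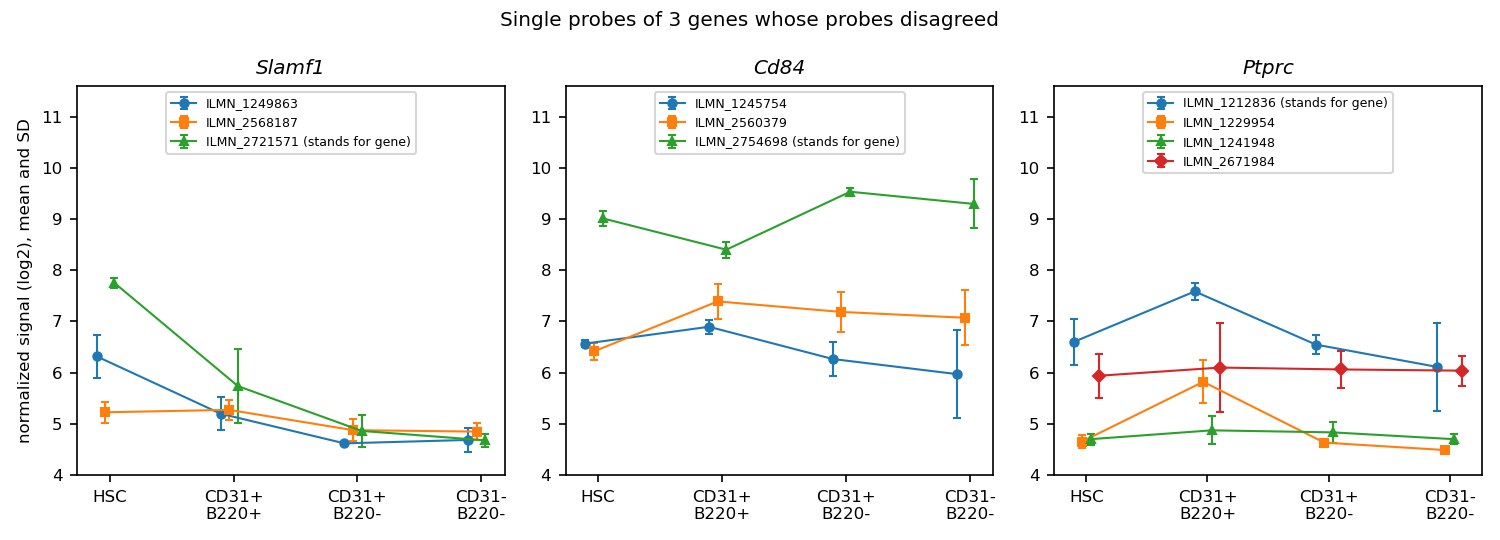
Mean normalized log2 signal with SD in each group for every probe of Slamf1, Cd84 and Ptprc (n = 2 for HSC and 3 for the other groups; lines join the groups of a probe). The brightest Cd84 probe was lowest in CD31+ B220+, at 8.40, while ILMN_2560379 was highest there, at 7.39; a Ptprc probe near background, ILMN_1229954, was detected only on CD31+ B220+ arrays.

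Ptprc was detected on all 11 arrays. HSC arrays read 6.92 and 6.28, CD31+ B220+ arrays 7.48, 7.77 and 7.51, CD31+ B220- arrays 6.68, 6.33 and 6.63, and CD31- B220- arrays 5.41, 5.86 and 7.06. CD31+ B220+ was the highest group without overlap, and CD31- B220- the most scattered, its replicate 3 standing above the CD31+ B220- arrays and the others of its group below them. Neutrophil genes summed to 49590 on that array and to 18902 and 23981 on replicates 1 and 2 of its group. Other lists differed too: erythroid genes summed to 37259 on it and to 44943 and 40397 on replicates 1 and 2. B lineage genes summed to 714, against 545 and 465. The part of these cell types in the Ptprc level was not tested. CD31+ B220+ exceeded CD31- B220- by 1.47 (SE 0.34, 2.78-fold, adjusted p = 0.00249). It exceeded CD31+ B220- by 1.04 (2.05-fold, adjusted p = 0.0267) and HSC by 0.99 (1.98-fold, adjusted p = 0.0459). Both of those were fragile. The difference from CD31+ B220- had adjusted p-values of 0.0513 to 0.0886 without any 1 of the 3 CD31+ B220+ arrays or without CD31+ B220- replicate 2 or 3. The difference from HSC was 0.67 (adjusted p = 0.29) without HSC replicate 2, was lost without any array of either CD31+ fraction or CD31- B220- replicate 2 (adjusted p = 0.0547 to 0.116), and turned to -0.60 (adjusted p = 0.155) with arrays scaled to equal medians.

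CD31+ B220- minus HSC was -0.05 for Ptprc (95% interval -0.86 to 0.76). CD31- B220- minus HSC was -0.49 (adjusted p = 0.301), and CD31+ B220- minus CD31- B220- was 0.44 (adjusted p = 0.382). Without CD31- B220- replicate 3 the last 2 became -0.96 (adjusted p = 0.00924) and 0.91 (adjusted p = 0.0119). With arrays scaled to equal medians, Ptprc was lower than in HSC in CD31+ B220- (-1.45, adjusted p = 0.00185) and in CD31- B220- (-1.89, adjusted p = 0.000147), where the median of all genes moved by -1.11 and -1.04.

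The 4 Ptprc probes read the gene differently. ILMN_1229954 was detected only on CD31+ B220+ replicates 2 and 3, at 6.26 and 5.78. By that probe CD31+ B220+ was at least 1.57-fold above HSC (adjusted p = 0.00126), at least 1.47-fold above CD31+ B220- (adjusted p = 0.000634) and at least 1.40-fold above CD31- B220- (adjusted p = 0.000149). ILMN_2671984, detected on 10 arrays, had group means of 5.94 to 6.10 and no call in any comparison, and ILMN_1241948 was detected on none. The exons the probes lie in were not analysed here.

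**Figure D4:**
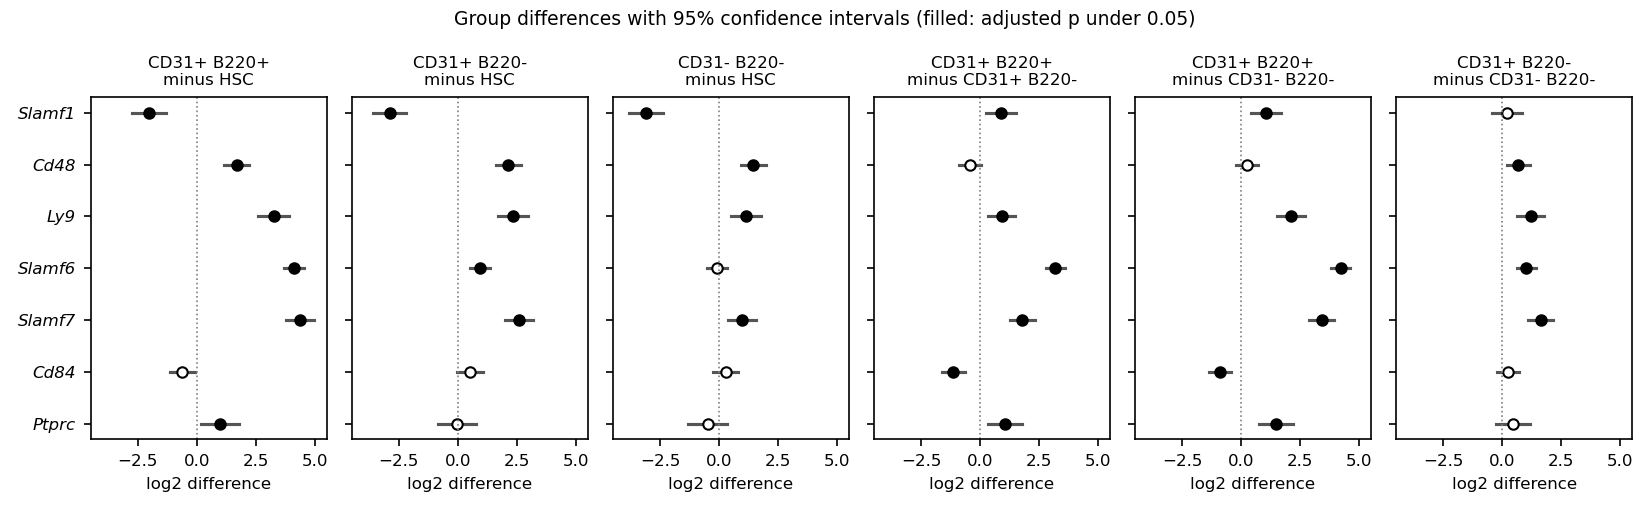
Log2 difference between groups (horizontal axis, first group minus second) with 95% confidence interval for each gene in the 6 comparisons; filled points had an adjusted p under 0.05. Points of genes undetected in 1 of the groups are fitted values against background, not bounds. CD31+ B220+ was at least 13.7-fold above HSC for Slamf6 and at least 14.3-fold for Slamf7, and Slamf1 was the gene below 0 in all 3 comparisons with HSC.

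The partners of the SLAM receptors are other receptors of the family, ligands, adaptors and signalling enzymes. Of 14 such genes listed, 10 were tested. In CD31+ B220+ against HSC 4 were higher and 2 lower (45.3% of all genes called), in CD31+ B220- against HSC 4 and 2 (42.5%), and in CD31- B220- against HSC 1 and 3 (50.2%). CD31+ B220+ had 3 higher and 3 lower than CD31+ B220- (36.4%) and 5 higher than CD31- B220- (45.6%). CD31+ B220- had 8 higher than CD31- B220- (29.4%), with a median of 0.98 (0.95 when bounds stand for genes that 1 group did not detect), beside 0.06 over all genes.

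Slamf9, a family member without the SAP-binding tail motif, was the strongest of them. Its mean was 11.02 ± 0.20 (SD, n = 3) in CD31+ B220+, 7.47 ± 0.43 in CD31+ B220- and 6.08 ± 0.11 in CD31- B220-, and it was undetected in HSC. The groups did not overlap, and CD31+ B220+ was 11.7-fold above CD31+ B220- (limma adjusted p = 3.33e-08) and at least 58.0-fold above HSC (adjusted p = 3.96e-10). Cd2, a receptor for CD48, read 10.19 ± 0.17 (SD, n = 3) in CD31+ B220+ and 6.62 to 7.39 in CD31+ B220-, and was undetected in the other groups. CD31+ B220+ was 9.10-fold above CD31+ B220- (adjusted p = 7.22e-08). Both receptors thus followed the order of Slamf6 and Slamf7 among the fractions, and Cd244a, the receptor of CD48 on NK and myeloid cells, was detected nowhere.

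Sh2d1b1, which encodes EAT-2, the adaptor of Slamf7 and other SLAM receptors, was detected only in CD31+ B220- (5.83 ± 0.44, SD, n = 3, on 3 of 3 arrays). It was at least 1.58-fold above HSC there (adjusted p = 0.00157) and at least 1.38-fold above CD31+ B220+ (adjusted p = 0.000432), so it was undetected in the fraction with the most Slamf7 signal. Its near copy Sh2d1b2 was detected on no array. Slamf8 and Sh2d1a, which encodes SAP, had no named probe. T and NK genes summed to 854 to 2089 in CD31+ B220- and 198 to 261 in CD31+ B220+, with the NK genes Ncr1 and Klrb1c undetected in both. The part of T and NK genes in the Sh2d1b1 signal was not tested.

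Ptpn6 encodes SHP-1, an inhibitory phosphatase that SLAM receptors can recruit. It was 13.16 ± 0.26 (SD, n = 3) in CD31+ B220+, 12.14 ± 0.13 in CD31+ B220-, 11.16 ± 0.41 in CD31- B220- and 11.28 ± 0.16 (n = 2) in HSC. CD31+ B220+ was 2.02-fold above CD31+ B220- (adjusted p = 0.00269) and also stood above CD31- B220- (adjusted p = 5.5e-06). Ptpn11, its close relative SHP-2, was called in no comparison. Inpp5d, the lipid phosphatase SHIP-1, and Vav1, a signalling protein of blood cells, were lower in CD31- B220- than in both CD31+ fractions, by 1.37 and 0.99 for Inpp5d and by 1.48 and 1.48 for Vav1 (adjusted p at most 0.00319).

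Among the kinases, Prkcq, protein kinase C theta of T cell signalling, was highest in HSC at 7.70 ± 0.20 (SD, n = 2). It was at least 5.05-fold lower in CD31+ B220+ (adjusted p = 2.27e-06), where it was undetected, and 3.72-fold lower in CD31+ B220- (adjusted p = 0.000151). Fyn, the kinase that SAP brings to SLAM receptors, was detected in HSC (6.07 ± 0.30, SD, n = 2) and on 2 of 3 CD31+ B220- arrays, and not in the other fractions. CD31+ B220+ was at least 1.63-fold below HSC (adjusted p = 0.00232), a call lost with the detected Fyn probes averaged (-0.57, adjusted p = 0.0677).

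**Figure D5:**
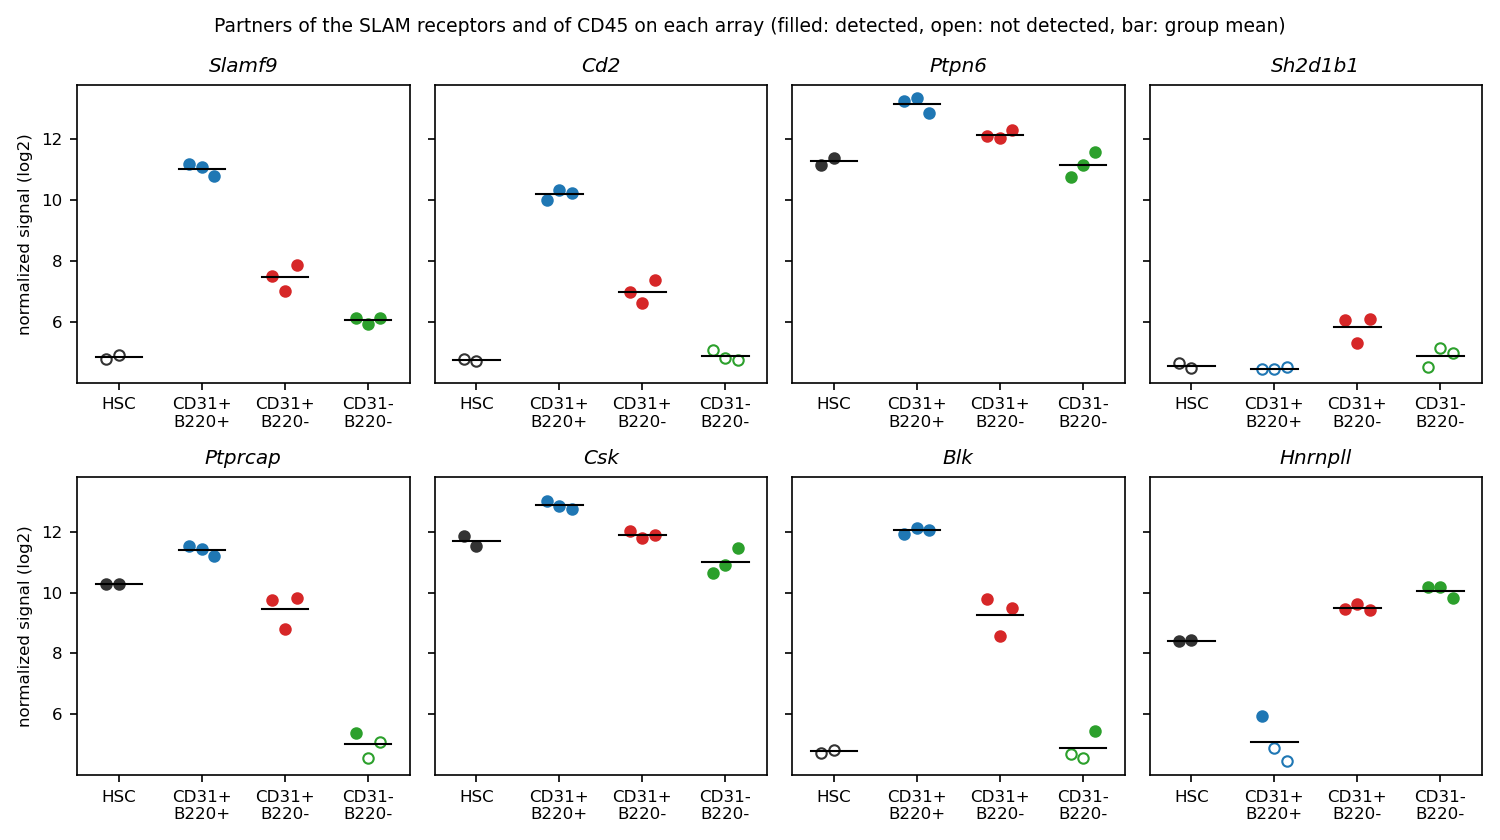
Normalized log2 signal of 8 partner genes on each array; filled points were detected, open points were not, bars are group means. Slamf9, Cd2 and Blk fell from CD31+ B220+ to CD31+ B220-, Sh2d1b1 was detected only in CD31+ B220-, and Hnrnpll was detected on 1 of 3 CD31+ B220+ arrays but on every other array.

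The partners of CD45 are its binding protein, the kinases it acts on and the factors that oppose it. Of 12 listed, 8 were tested. Against HSC, 4 were higher and 2 lower in CD31+ B220+ (45.3% of all genes called), 3 and 2 in CD31+ B220- (42.5%), and 1 and 3 in CD31- B220- (50.2%). CD31+ B220+ had 4 higher and 2 lower than CD31+ B220- (36.4%) and 4 higher and 1 lower than CD31- B220- (45.6%), and CD31+ B220- had 5 higher and 1 lower than CD31- B220- (29.4%).

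Ptprcap encodes the small membrane protein that binds CD45 in lymphocytes. It was 11.39 ± 0.16 (SD, n = 3) in CD31+ B220+, 10.28 ± 0.02 (n = 2) in HSC and 9.46 ± 0.56 (n = 3) in CD31+ B220-, and was detected on 1 of 3 CD31- B220- arrays. CD31+ B220+ was 3.80-fold above CD31+ B220- (adjusted p = 8.89e-05), and CD31- B220- minus HSC was -5.26 (adjusted p = 1.54e-08). Between CD31+ B220+ and CD31- B220- the difference was 6.36 for Ptprcap and 1.47 for Ptprc. For Ptprcap the CD31- B220- arrays read 5.39, 4.58 and 5.10, only the first detected. Its differences from that fraction are thus partly fitted values against background.

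Of the Src-family kinases, Blk of B cells was 12.04 ± 0.09 (SD, n = 3) in CD31+ B220+ and 9.28 ± 0.64 in CD31+ B220-, was detected on 1 CD31- B220- array and was undetected in HSC. CD31+ B220+ was 6.76-fold above CD31+ B220- (adjusted p = 7.5e-06). Fgr, a kinase of myeloid cells, had another order, 6.77 ± 0.29 (SD, n = 3) in CD31- B220- and 6.19 ± 0.11 in CD31+ B220-, and was undetected in CD31+ B220+ and HSC. CD31- B220- was at least 2.66-fold above CD31+ B220+ (adjusted p = 9.06e-07). Src was detected on both HSC arrays, at 6.23 ± 0.17 (SD, n = 2), and on 1 array of the fractions. It was at least 1.82-fold lower in CD31+ B220+ than in HSC (adjusted p = 0.000505). Lck and Lyn had no named probe, and Yes1 was detected nowhere.

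Csk, the kinase that switches Src-family kinases off where CD45 switches them on, was 12.86 ± 0.13 (SD, n = 3) in CD31+ B220+, 11.89 ± 0.12 in CD31+ B220-, 10.64 to 11.47 in CD31- B220- and 11.68 ± 0.24 (n = 2) in HSC. CD31+ B220+ was 1.96-fold above CD31+ B220- (adjusted p = 0.00302) and 3.64-fold above CD31- B220- (adjusted p = 8.16e-06). Ptpn22, a phosphatase that works with Csk, moved the other way between the CD31+ fractions, at -1.05 for CD31+ B220+ minus CD31+ B220- (adjusted p = 0.00409). Cd22, a lectin of B cells that binds CD45, was 10.91 ± 0.12 (SD, n = 3) in CD31+ B220+ and 6.77 ± 0.39 in CD31+ B220-, a 17.7-fold difference (adjusted p = 4.66e-09), and was undetected elsewhere. Blk and Cd22 are also among the B lineage marker genes.

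Exon choice in Ptprc depends on RNA-binding proteins. Of 5 listed, Hnrnpll, which represses the variable exons of CD45, had by far the widest contrast. It read 8.40 and 8.44 in HSC, 9.43 to 9.61 in CD31+ B220- and 9.81 to 10.18 in CD31- B220-. On the CD31+ B220+ arrays it read 4.47 to 5.94 and was detected on 1 of 3. The fraction sorted for the long CD45 form was thus the lowest, without overlap: CD31+ B220+ differed from HSC by -3.31 (SE 0.33, adjusted p = 2.02e-06), from CD31+ B220- by -4.40 (SE 0.29, adjusted p = 7.56e-08) and from CD31- B220- by -4.95 (SE 0.29, adjusted p = 9.9e-09). These 3 calls held under all alternatives run. Its levels in CD31+ B220- and CD31- B220- were higher than in HSC, by 1.09 (adjusted p = 0.016) and 1.64 (adjusted p = 0.000908). Neither call held with arrays scaled to equal medians (-0.36 and 0.32) or in the deposited processed values (adjusted p = 0.295 and 0.114). The call for CD31+ B220- was also lost with detected Hnrnpll probes averaged (0.36, adjusted p = 0.233). Hnrnpl and Ptbp1, RNA-binding proteins also tied to these exons, were called in no comparison. Thrap3, which acts on CD45 exons in human T cell lines, was lower in all 3 fractions than in HSC, at -0.76, -0.71 and -0.84 (adjusted p at most 0.0128). With its detected probes averaged, these became -0.11, -0.59 and -0.32 and none was called (adjusted p = 0.0504 to 0.713). The median difference of these 5 genes was 0.00 in CD31+ B220+ against HSC, beside -0.03 over all genes. No isoform was measured.

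The genes whose profiles over the 11 arrays were most like each member were named among 9541 candidates by the root mean square difference of centred log2 values, as a description. For Slamf6 they were Scimp (0.275), Myzap (0.279) and Ell3 (0.302), each at a mean of 8.96 to 9.17 in CD31+ B220+ and undetected in HSC. For Slamf7 they were Tulp4 (0.320), Bin1 (0.415) and H2-Aa (0.431). Ly9 was nearest to B3gnt8 (0.254), Man2a1 (0.281) and Sgk1 (0.327). The nearest to Slamf1 were Thsd1 (0.347), Sema7a (0.348) and Dusp4 (0.363), and to Cd48 Edem1 (0.254), Slc35e1 (0.260) and Nubp1 (0.284). Cd84 was nearest to Atp6v1b2 (0.187), Rcan1 (0.194) and Tmem65 (0.220), and Ptprc to Arhgef3 (0.177), Ppp3ca (0.278) and Csk (0.288), one of the CD45 partners above.

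The 6 SLAM members lie side by side on chromosome 1 with Cd244a, in the order Cd244a, Ly9, Slamf7, Cd48, Slamf1, Cd84 and Slamf6, and Ptprc lies elsewhere on the same chromosome. Ly9 and Slamf7, which adjoin in this row, had the same order of the 4 groups. Cd84 and Slamf6, at its end, differed between the CD31+ fractions in opposite directions by the brightest Cd84 probe. Of 11 genes that are not SLAM members, within the row or the nearest 5 on either side, 8 were tested. CD31+ B220+ differed from CD31+ B220- in 2 of them, both higher (36.4% of all genes called), and from CD31- B220- in 4, all higher (45.6%). CD31+ B220- differed from CD31- B220- in 3, all higher (29.4%). Against HSC, 3 were higher and 1 lower in CD31+ B220+ (45.3%), 2 and 2 in CD31+ B220- (42.5%), and 0 and 3 in CD31- B220- (50.2%).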

How the data were processed

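Gene expression was measured on 11 Illumina MouseWG-6 v2 bead arrays. The deposited file held a bead intensity per probe, without background subtraction, and a fraction headed as a detection p-value that rose with the signal, and 1 minus this fraction was taken as the detection p. The authors' processed values are deposited too, lie on what looks like a log2 scale (base not given in the sources used here) and keep the probe order of the intensities. The submitters' processing notes name lumi 1.1.0 with no role. Probes were named from the platform annotation, 34885 with a single symbol.

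Intensities were background-corrected by normexp from the detection p, quantile-normalized and put on a log2 scale with an offset of 16 (limma 3.58.1, R 4.3.3). Each gene stood as its brightest probe, and detection (p under 0.05) on 2 or more arrays was needed for a test. A single linear model held the 11 arrays, and limma's moderated test, 2-sided, was run for 6 contrasts, with Benjamini-Hochberg adjustment over 11376 genes. Single probes were fitted apart. The linear-model step alone was also run on simulated log2 values with known changes. That run did not cover background correction or normalization. The number of arrays limits the precision.

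Members and lists were chosen with earlier results of these data known. All members are named. Partner genes are named where called in at least 3 comparisons, and 3 genes of most similar profile are named for each member. Some further partners are named as undetected, as called in no comparison or as lacking a named probe. Alternatives changed the background correction, scaling, dim-probe filter, probe choice, variance model, samples fitted and replicate block, used the deposited values, or left out each array in turn.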

Additional observations from a re-analysis of the deposited data

How the results depend on the processing

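Of 966 recomputed member differences, 906 stayed on their side of the threshold, 42 lost the call, 13 gained one and 5 reversed. A change of sign was counted as reversed only where 1 of the 2 fits passed the threshold. The 906 thus include differences near 0 or not called that changed sign. Cd84 in CD31+ B220+ against HSC, for example, ran from -2.11 to 0.23 with none counted as reversed. Between the CD31+ fractions 6 of 7 genes were called, but 3 with arrays scaled to equal medians and 3 in the deposited processed values, where Slamf1, Ly9 and Ptprc were lost. Leaving out each array in turn gave 5 to 7 called genes for CD31+ B220+ against HSC, 5 to 6 for CD31+ B220- against HSC and 2 to 5 for CD31- B220- against HSC. It gave 3 to 6 for CD31+ B220+ against CD31+ B220-, 6 in every case against CD31- B220-, and 3 to 4 for CD31+ B220- against CD31- B220-. The low values came without HSC replicate 1 (2, against 4) and without replicate 2 of either CD31+ fraction (3, against 6).

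Scaling to equal medians in place of quantile normalization moved the median of all genes against HSC by -1.19, -1.11 and -1.04, and the share of calls that were higher from 42.5% to 9.49%, 42.9% to 11.2% and 42.7% to 13.8% in the order of fractions. Between CD31+ B220+ and CD31+ B220- the share went from 47.8% to 36.3%. Under that scaling Ptprc in CD31+ B220+ was -0.60, Cd84 in CD31+ B220- -0.83 and in CD31- B220- -0.98, and Ly9 in CD31- B220- -0.33 against HSC, all reversed; relative to the shifted median Ptprc, both Cd84 values and Ly9 were at 0.59, 0.28, 0.06 and 0.71. Of the partners against HSC, Ptprcap (-0.15), Inpp5d (-0.74), Vav1 (-0.89) and Ptbp1 (-0.73) in CD31+ B220+ and Inpp5d (-0.99), Ptpn22 (-1.25) and Hnrnpll (-0.36) in CD31+ B220- also turned below 0, and Ptpn11 was called lower in all 3 fractions (-1.46, -1.17 and -0.88). With detected probes averaged, Cd84 in CD31+ B220+ against CD31- B220- was 0.12. The cause was not tested.

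Replicate numbers are shared by the groups, and same-numbered arrays showed little shared deviation: 15 pairs correlated at -0.09 to 0.20, 2 of them over 0.1. With 2 or 3 arrays per group this check can miss a pairing, and whether the numbers pair arrays is not known. With the replicate block, 5, 5, 4, 6, 6 and 4 genes were called in the 6 comparisons, and the change was Ptprc in CD31+ B220+ against HSC, at 0.83 (adjusted p = 0.0953). A robust variance estimate was added after the data were seen and changed no member's call. Signals near background limit what can be said of undetected genes, and HSC had 2 arrays.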
